A study of Xenopus laevis with 15 samples.

Results

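The comparison described here is between Xenobots collected 4 h after an embryo extract and Xenobots collected immediately after it (0 h), and it rests on 6 of the 15 libraries of the series, 3 at each time. The 6 libraries were chosen by their labelled stimulus and time. Xenobots are motile spheres of tissue, grown here from animal cap ectoderm of wild-type (WT) Xenopus laevis embryos, which had healed and developed for 7 days at 14 °C. All 15 libraries were pools of 50 such Xenobots, so differences among single Xenobots were not measured. The extract was made from 3 homogenised blastula embryos and was used at 10 µL per 14 mL of medium. The remaining libraries were 3 collected before any stimulus (Ctrl), 3 taken directly after 250 µM ATP and 3 taken 4 h after it. The series asks how a brief stimulus is registered in these constructs, and this comparison asks which transcripts differed between the moment after extract and 4 h later. No unstimulated group at 4 h was analysed here, so the effect of the extract and that of the hours elapsed cannot be told apart.

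The surface of such explants is a mucociliary epidermis, in which multiciliated cells move fluid, ionocytes transport ions and secretory cells release mucins and lectins. A stimulus to such a tissue is commonly followed by a burst of immediate early genes, which encode short-lived transcription factors such as Fos, Jun and Egr1. These genes are known to be switched off again quickly, partly because proteins of the Zfp36 family send their messages to decay. The Hippo pathway, in which Yap acts through the DNA-binding Tead proteins, responds to tension and cell density in epithelia.

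The total expected count per library, to 6 digits, was 12583000 to 18697300 over the 6 libraries, of which ribosomal RNA took 20.1% to 39.2%. Ribosomal RNA made up 31.7% ± 8.62 at 0 h and 29.2% ± 9.61 at 4 h (SD, n = 3 each). An exact two-sided permutation test of that share gave p = 0.8, and 3 libraries against 3 cannot give less than 0.1. The libraries did not sort by time. Across genes, the correlation of log2 CPM (counts scaled to library size) was 0.958 to 0.986 between libraries of the same time and 0.963 to 0.984 between the times. Replicates 1 and 2 at 4 h were the most alike of all pairs, whereas replicate 3 at 4 h correlated with them at 0.958 and 0.964. In 11% of genes the counts of replicates 1 and 2 at 4 h differed beyond a chi-square test at the 5% level, against 24.0% to 44.6% in the other pairs. As 11% is above the 5% of sampling noise, they were kept as 2 samples, as labelled. The test cannot tell 2 pools from 2 libraries of 1 pool, and an alternative with both summed is given below. The labelled cell type is epidermal, and the epithelial markers cdh1.S (E-cadherin, 505 to 650 CPM) and itln1.L (a secreted lectin, 3693 to 4625 CPM) were high in all 6 libraries. Other members of the same marker set were lower: cdh1.L was at 9.79 to 17.4 CPM, and otogl.L had at most 2 counts. Of the few defining markers of other cell types, those of neural crest summed to at most 0.275 CPM, of endoderm to at most 1.1 CPM and of notochord to at most 1.36 CPM in any library. Muscle markers summed to 1.72 to 11.8 CPM. Cement gland markers were higher, at 73.4 to 139 CPM, mostly from the agr2 copies. Neuronal markers summed to 68.7 to 81.3 CPM, nearly all of it from syt1.L (a synaptic vesicle protein, 66.1 to 78.1 CPM), while elavl3.L had at most 1 count and snap25.S had 0 in all 6. A longer list of endoderm, notochord and kidney genes, of which 11 were tested, summed to 54.7, 70.2 and 68.0 CPM at 0 h. At 4 h it summed to 87.7, 95.3 and 74.8 CPM, so that its sum was higher in every library at 4 h than at 0 h. The Ctrl libraries held 102, 190 and 85.0 CPM, and no 4 h library lay above that range. Most of the list's sum came from the copies of col2a1, a cartilage and notochord collagen.

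No gene passed the test between 0 h and 4 h after correction over the 24052 genes tested. The number with an adjusted p under 0.05 was 0 (0%) by the quasi-likelihood test of edgeR (Benjamini-Hochberg), whose smallest adjusted p was 0.570. At an unadjusted p under 0.05 stood 569 genes (2.37%), of which 253 were lower at 4 h (1.05%) and 316 higher (1.31%). At that level 1203 genes would be reached if p-values were spread evenly. DESeq2 called 5 genes, namely znf703.L, rhob.L, ier5l.S and zfp36l1.S as lower and angptl4.S as higher, and limma-voom called 0 with 591 at an unadjusted p under 0.05. The unadjusted count was 1606 without replicate 3 at 4 h and 359 without replicate 1 at 4 h. The 3 libraries at 4 h lay wholly below those at 0 h in 801 genes (3.33%) and wholly above in 897 (3.73%), together 1698 (7.06%). The median log2 fold change over all genes tested was -0.00, and the median standard error was 0.15 among the 10956 genes with a mean of at least 10 CPM. The genes below are therefore described by their values, with the log2 fold change of the fit and its standard error (SE).

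**Figure D1:**
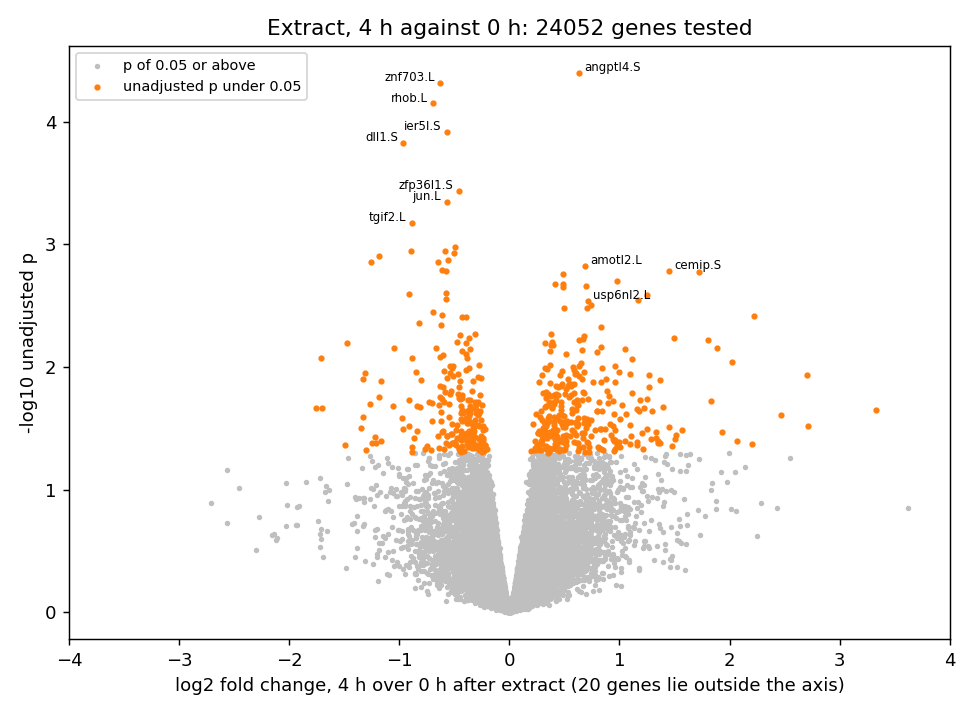
Each point is one of the 24052 tested genes, with the log2 fold change of 4 h over 0 h after extract on the x axis and -log10 of the unadjusted p on the y axis; 20 genes lie beyond the x axis. Orange points are the 569 genes with an unadjusted p under 0.05, and none of them has an adjusted p under 0.05.

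The 10 lower genes named first had the smallest p among genes with a symbol, at least 1 CPM and no overlap between the times. Their lack of overlap was thus a condition of the choice and is no result. The 10 came from 8 gene symbols, and most of them encode transcriptional regulators or early-response proteins. They were lower by log2 fold changes of -0.46 to -0.96, and edgeR's adjusted p for them ran from 0.570 to 1.00. For each of the 10, the libraries at 0 h overlapped those before stimulus, and for 9 of the 10 every library at 4 h lay below all 3 Ctrl libraries. As the 10 were chosen for low values at 4 h, that position partly follows from the choice. The same share over all genes was not computed. In 7 of the 10, replicate 3 at 4 h was the library nearest to 0 h. Because RNA was taken from whole pools, fewer cells expressing a gene and less of its RNA per cell cannot be told apart.

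The lower gene with the smallest p was znf703.L, a copy of the gene for a zinc-finger transcriptional corepressor. For znf703.L the 3 libraries at 0 h held 51.7, 55.0 and 48.5 CPM, and those at 4 h held 31.5, 32.8 and 36.3 CPM. The groups did not overlap, and the log2 fold change was -0.63 (SE 0.11). Its homeolog znf703.S, the copy on the other subgenome of this allotetraploid frog, measured 46.9 ± 1.48 CPM at 0 h and 33.3 ± 2.01 CPM at 4 h (SD, n = 3). It too had no overlap between the times. Expected counts share out reads that match both copies, so the division between .L and .S is uncertain.

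Lower as well was rhob, a small GTPase of endosomes and the actin cytoskeleton that is an early-response gene in mammals. The 0 h libraries held 52.6, 45.9 and 45.7 CPM of rhob.L, and the 4 h libraries 24.8, 29.2 and 35.0 CPM. All values at 4 h were below all values at 0 h, with a log2 fold change of -0.70 (SE 0.13). For rhob.S the values were 72.6, 57.4 and 50.0 CPM at 0 h and 30.3, 35.7 and 51.1 CPM at 4 h. There replicate 3 at 4 h reached into the range of the 0 h libraries, and the log2 fold change was -0.62 (SE 0.19).

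For ier5l, a relative of the immediate early response gene ier5, both copies were lower without overlap. The copy ier5l.S stood at 27.1, 27.2 and 27.8 CPM at 0 h and at 16.2, 17.8 and 21.4 CPM at 4 h. Its values at 0 h were nearly equal to each other and to the Ctrl mean of 27.2 ± 0.925 CPM (SD, n = 3). The log2 fold change was -0.57 for ier5l.S (SE 0.11) and -0.50 for ier5l.L (SE 0.13).

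The AP-1 subunit jun and the decay factor zfp36l1, which binds AU-rich elements of mRNAs, followed. For jun.L the values were 29.6, 22.4 and 28.7 CPM at 0 h and 17.5, 19.0 and 17.7 CPM at 4 h, with a log2 fold change of -0.57 (SE 0.13). The other copy, jun.S, had a log2 fold change of -0.62 (SE 0.16), also without overlap. The level of zfp36l1.S was 54.0, 59.9 and 56.8 CPM at 0 h against 36.4, 41.5 and 45.8 CPM at 4 h, and the groups were again apart (log2 fold change -0.46, SE 0.10).

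Lower at a smaller level of expression were dll1.S, which encodes a Notch ligand, tgif2.L, a homeodomain repressor of Smad-dependent transcription, and snai1.S, a zinc-finger repressor known from epithelial-mesenchymal transitions. For dll1.S the libraries held 9.72, 8.47 and 5.61 CPM at 0 h and 4.26, 3.98 and 4.06 CPM at 4 h (log2 fold change -0.96, SE 0.19). Its spread was wide at 0 h and narrow at 4 h. The levels of tgif2.L were 6.64, 6.38 and 5.79 CPM at 0 h and 3.16, 3.00 and 4.06 CPM at 4 h (log2 fold change -0.89, SE 0.21). Those of snai1.S were 5.53, 6.80 and 9.77 CPM at 0 h and 4.40, 3.72 and 3.67 CPM at 4 h (log2 fold change -0.89, SE 0.22). Neither gene overlapped between the times. The weakly expressed other copy dll1.L had a log2 fold change of -0.12 with overlapping libraries.

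**Figure D2:**
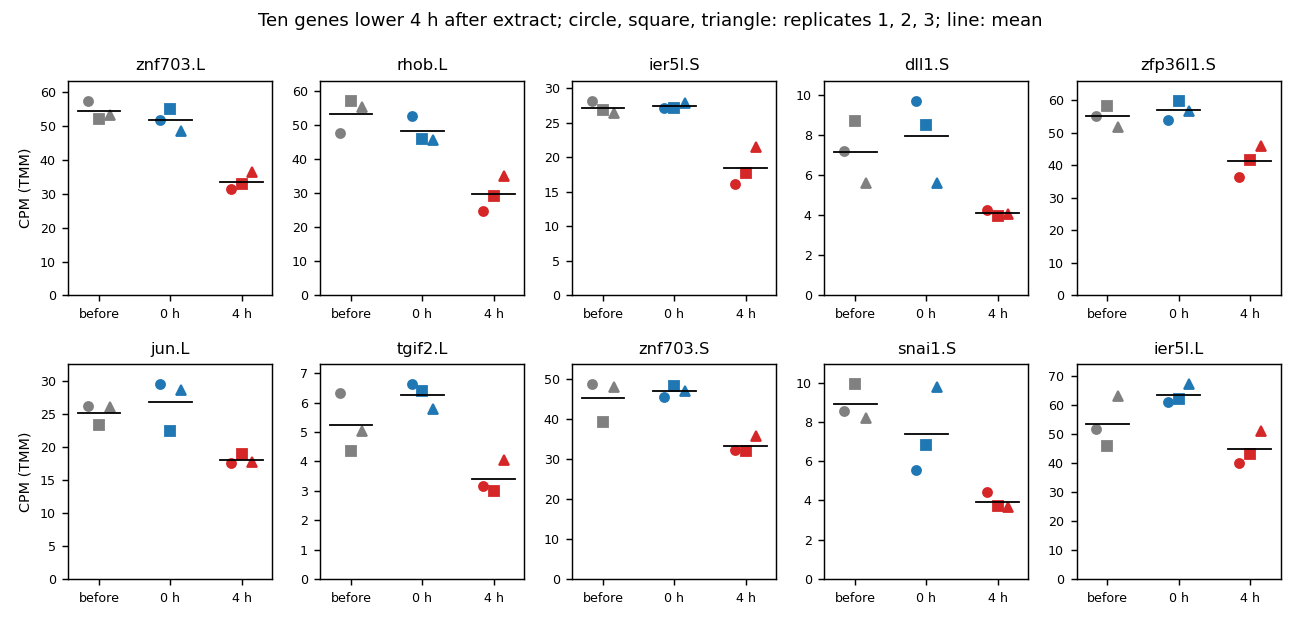
CPM after TMM scaling (y axis, linear from 0) of the 10 lower genes in the libraries before stimulus (grey), at 0 h (blue) and at 4 h (red) after extract; symbols mark replicates and lines the group means. In each panel the 3 libraries at 4 h lie below the 3 at 0 h, which the choice of genes required. The 0 h libraries overlap those before stimulus.

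Transcription factors of embryonic patterning held many of the genes with small p. Of 110 tested, 15 were lower and 2 higher at an unadjusted p under 0.05 (15.5%, against 2.37% of all genes), 0 passed the adjustment, and the median log2 fold change was -0.10. Without replicate 3 at 4 h, 20 were lower and 2 higher. The background rose as well: 914 of all 24558 genes tested were then lower and 692 higher, against 253 and 316 with all libraries. The lists were composed with earlier results of these data known, so such a share is a description and no independent evidence of a direction. Beside znf703 and tgif2, the list holds sox9, an HMG-box factor of neural crest and cartilage. The mean of sox9.S was 31.0 ± 1.46 CPM at 0 h and 19.8 ± 2.63 CPM at 4 h, and that of sox9.L 41.9 ± 3.83 and 32.6 ± 5.12 CPM (SD, n = 3). Both copies were without overlap, with log2 fold changes of -0.65 (SE 0.17) and -0.36 (SE 0.12). The Iroquois factor irx2.S measured 24.9, 23.1 and 23.6 CPM at 0 h and 15.7, 17.8 and 21.0 CPM at 4 h, which do not overlap either (log2 fold change -0.40, SE 0.12). The LIM-homeobox gene lhx5.S had 8, 10 and 3 counts at 0 h and 0 in each library at 4 h. Set against a floor of 3 counts over the group, that is at least 7.81-fold lower, at a level under 1 CPM.

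Within the Wnt list, 6 of 77 genes were lower and 0 higher at an unadjusted p under 0.05 (7.79%, against 2.37% of all genes), with a median log2 fold change of -0.01. Among them was axin2, a scaffold of the beta-catenin destruction complex that is itself a common Wnt target. For axin2.L the values were 54.0, 59.6 and 63.7 CPM at 0 h and 46.5, 45.2 and 42.9 CPM at 4 h. The groups were separate (log2 fold change -0.40, SE 0.13). The less abundant axin2.S had a log2 fold change of -0.58 (SE 0.16), also without overlap.

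In the BMP and TGF-beta list, 7 of 77 genes were lower and 2 higher (11.7%, against 2.37% of all genes), and the median was 0.06. The lower ones included the inhibitory Smad smad7, the homeobox gene msx1 that BMP signalling is known to induce, and bmp4 itself, the ligand that favours epidermal over neural fate. For smad7.L the libraries held 17.9, 20.2 and 24.2 CPM at 0 h and 12.4, 13.2 and 16.1 CPM at 4 h (log2 fold change -0.58, SE 0.16). For bmp4.L they held 27.3, 29.3 and 29.4 CPM at 0 h and 20.7, 24.3 and 26.2 CPM at 4 h (log2 fold change -0.27, SE 0.11). Neither overlapped, whereas bmp4.S did (log2 fold change -0.13, SE 0.15). The receptor gene bmpr2.L was among the 2 higher, at 17.9 ± 1.94 CPM at 0 h and 22.3 ± 1.01 CPM at 4 h (SD, n = 3).

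The Notch list had 3 lower and 0 higher of 54 (5.56%, against 2.37%). Without replicate 3 at 4 h it had 3 lower and 2 higher, where 914 of all 24558 genes tested were lower and 692 higher. With all libraries the 3 lower genes were dll1.S and the bHLH repressors hes4.S and hes1.L, both known Notch targets. The level of hes4.S was 18.8, 11.6 and 11.5 CPM at 0 h and 8.80, 8.73 and 8.97 CPM at 4 h. The 4 h values were close together and all below the lowest value at 0 h (log2 fold change -0.66, SE 0.21). The receptor copies notch1.L and notch1.S had log2 fold changes of 0.16 and -0.04, with overlapping libraries.

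The immediate early genes had unlike values. Of the AP-1 list, 2 of 20 were lower at an unadjusted p under 0.05 (10%, against 1.05% of all genes), and both were jun copies. For fos.L the libraries held 3.63, 2.98 and 3.44 CPM at 0 h and 3.03, 3.05 and 4.13 CPM at 4 h, and for junb.L 57.9, 49.3 and 53.1 CPM and 46.0, 46.1 and 67.0 CPM. Neither gene was separate between the times, though for junb.L replicates 1 and 2 at 4 h lay below all 0 h libraries and replicate 3 above them. The log2 fold changes were 0.02 (SE 0.24) for fos.L and -0.01 (SE 0.15) for junb.L. The zinc-finger factor egr1.L was at 0.10 (SE 0.23) and the MAP kinase phosphatase dusp1.L at 0.04 (SE 0.23). In these 4 genes the highest library of the 4 h group was replicate 3. In the list of early nuclear receptors and related factors 2 of 32 genes, myc.L and mycn.S, were lower and 1 was higher (9.38%, against 2.37% of all genes). The median was -0.03. Without replicate 3 at 4 h, 5 were lower and 0 higher, where 914 of all 24558 genes tested were lower and 692 higher. With all libraries the higher gene of the list was the nuclear receptor nr4a1.L. Its libraries held 11.1, 12.1 and 12.2 CPM at 0 h and 13.1, 16.2 and 18.5 CPM at 4 h (log2 fold change 0.43, SE 0.19). Of the wider list of early signalling genes, which holds rhob and ier5l, 8 of 50 were lower and 3 higher (22%, against 2.37%), and its median was 0.05, or -0.02 without replicate 3 at 4 h.

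The times after ATP offered a second pair of groups that shares no library with this one. After ATP, fos.L had a log2 fold change of -1.63, junb.L of -0.70, egr1.L of -0.66 and dusp1.L of -0.75 between 0 h and 4 h. The time change after extract minus that after ATP was 1.65 (SE 0.33) for fos.L, 0.69 (SE 0.21) for junb.L, 0.77 (SE 0.32) for egr1.L and 0.79 (SE 0.32) for dusp1.L, each at an unadjusted p under 0.05. The .S copies gave 1.26 (SE 0.36) for fos.S and 0.60 (SE 0.27) for junb.S, also under 0.05, while egr1.S at 0.74 (SE 0.36) and dusp1.S at 0.58 (SE 0.30) did not reach that level. None of these differences passed the Benjamini-Hochberg adjustment of edgeR's test over all genes, where the smallest adjusted p was 1.00 and 330 genes (1.37%) had an unadjusted p under 0.05. For jun.L the time change was -0.57 after extract and -0.96 after ATP, a difference of 0.39 (SE 0.18).

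**Figure D3:**
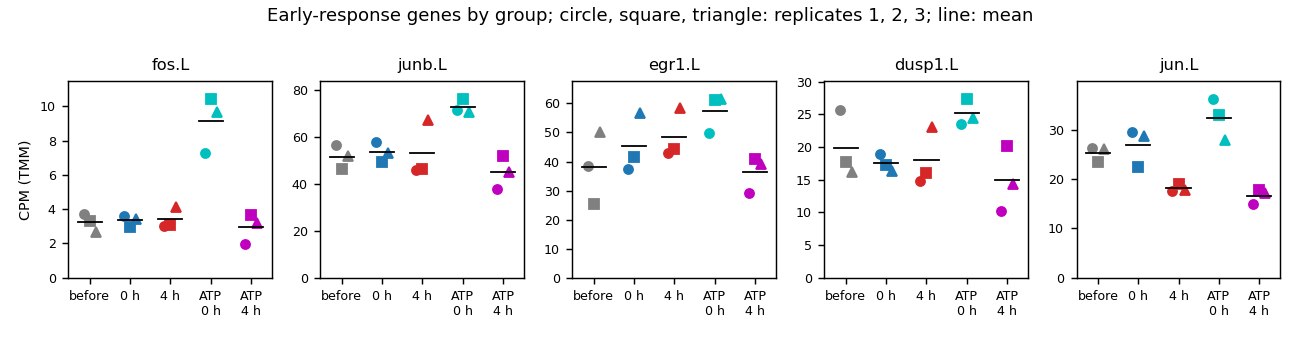
CPM after TMM scaling (y axis, linear from 0) of 5 early-response genes before stimulus and at 0 h and 4 h after extract or ATP; symbols mark replicates and lines the group means. The libraries of fos.L, junb.L, egr1.L and dusp1.L at 0 h and 4 h after extract overlap, while those of jun.L at 4 h lie below those at 0 h.

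The 10 higher genes named first were chosen by the same rule as the lower ones, so their lack of overlap was again required. They came from 9 gene symbols and had log2 fold changes of 0.41 to 1.45. For each of the 10 the 0 h libraries overlapped Ctrl, and for 8 every library at 4 h was above all 3 Ctrl libraries. That position too partly follows from the choice, and its share over all genes was not computed. The gene with the smallest p of the whole comparison was angptl4.S, which encodes a secreted inhibitor of lipoprotein lipase and is a known target of PPAR receptors. Its libraries held 17, 18.8 and 18.5 CPM at 0 h and 26.5, 28.1 and 29.5 CPM at 4 h. The spread within each time was far smaller than the gap between them, and the log2 fold change was 0.63 (SE 0.11; edgeR's adjusted p 0.570). The homeolog angptl4.L gave 19.5, 22.9 and 22.6 CPM at 0 h and 29.6, 27.8 and 33.7 CPM at 4 h, likewise apart (log2 fold change 0.49, SE 0.13). In the PPAR and lipid-handling list, 1 of 63 genes was lower and 2, the angptl4 copies, were higher (4.76%, against 2.37%), with a median of 0.01.

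Next came amotl2.L, an angiomotin relative that binds Yap at cell junctions. Values were 16.2, 17.7 and 15.6 CPM at 0 h and 27.4, 24.1 and 28.2 CPM at 4 h. The groups were apart (log2 fold change 0.68, SE 0.18), and amotl2.S was at 0.57 (SE 0.22) without overlap. In the Hippo and Yap list 4 of 48 genes were higher and 0 lower (8.33%, against 1.31% of all genes higher), these being the amotl2 copies, tead4.L and vgll2.L. The median was 0.10, and 40 of the 48 genes had a log2 fold change above 0 (83.3%, against 49.5% of all genes tested). That median was 0.10 to 0.12 when any 1 of the 6 libraries was left out. The Yap partner tead4.L measured 55.8, 56.0 and 54.2 CPM at 0 h and 72.5, 69.0 and 65.6 CPM at 4 h (log2 fold change 0.32, SE 0.10). The groups were separate in this abundant gene too. For the Tead cofactor vgll2.L there were 0 counts at 0 h and 4, 5 and 1 counts at 4 h, with replicate 3 lowest as in the summed muscle markers given with the matrix genes. The matricellular Yap target ccn1.L measured 8.30 ± 1.29 CPM at 0 h and 12.4 ± 1.54 CPM at 4 h (SD, n = 3), without overlap, though it was not among the genes with an unadjusted p under 0.05.

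The other higher genes covered varied functions. The gene with the largest log2 fold change of the 10 was cemip.S, which encodes a protein of hyaluronan turnover, at 2.15, 2.21 and 1.36 CPM at 0 h and 6.60, 6.67 and 2.55 CPM at 4 h. Its replicate 3 at 4 h was far below the other two. For pde4b.S, a phosphodiesterase that degrades cyclic AMP, the values were 10.5, 12.1 and 11.8 CPM at 0 h and 16.2, 16.9 and 14.9 CPM at 4 h. Those of rcor1.L, a corepressor of the CoREST complex, were 8.18, 9.13 and 10.1 CPM at 0 h and 13, 12.6 and 12.6 CPM at 4 h. Both were without overlap, with log2 fold changes of 0.49 (SE 0.13) and 0.48 (SE 0.13). The ubiquitin-binding zinc-finger gene zfand5.S stood at 39.0 ± 1.28 and 51.9 ± 4.39 CPM, and the teashirt-family factor tshz1.S at 2.34 ± 0.560 and 3.84 ± 0.314 CPM (SD, n = 3). The Rab GTPase-activating relative usp6nl2.L was at 4.51 ± 1.03 CPM at 0 h and 7.36 ± 1.07 CPM at 4 h.

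**Figure D4:**
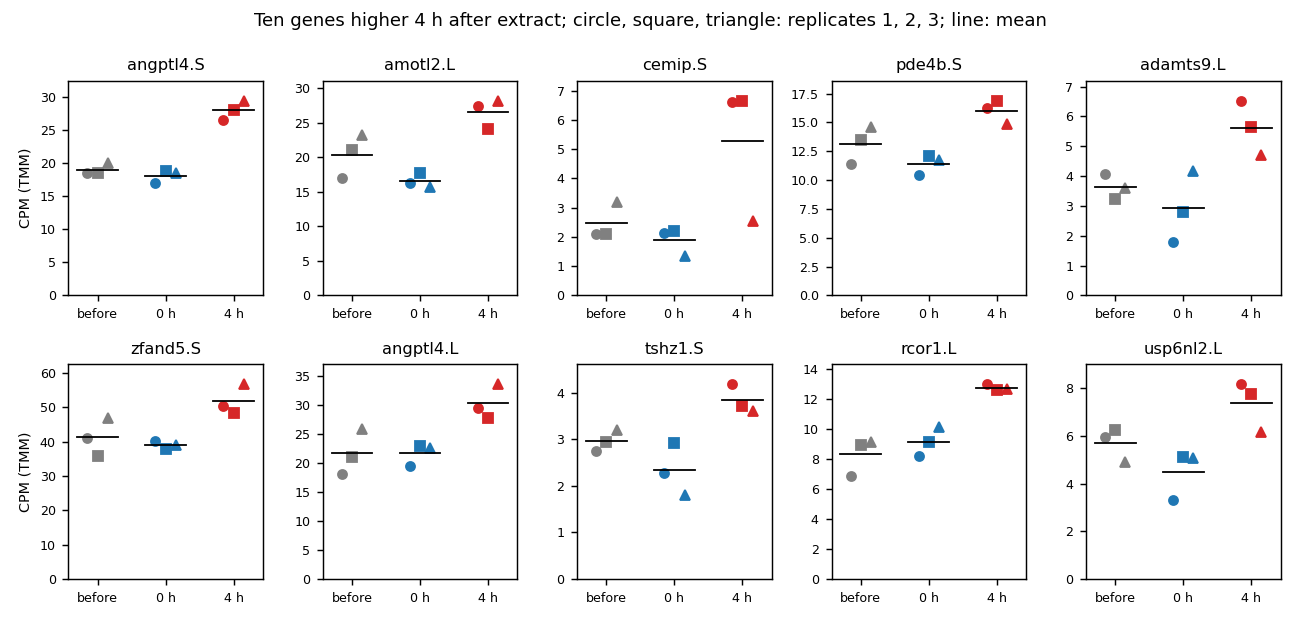
CPM after TMM scaling (y axis, linear from 0) of the 10 higher genes in the libraries before stimulus (grey), at 0 h (blue) and at 4 h (red) after extract; symbols mark replicates and lines the group means. In each panel the 3 libraries at 4 h lie above the 3 at 0 h, which the choice of genes required. For cemip.S replicate 3 at 4 h (2.55 CPM) lies close to the 0 h libraries.

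Extracellular matrix and integrin genes leaned upward as a list, with few single genes of small p. Of 172 tested, 142 had a log2 fold change above 0 (82.6%, against 49.5% of all genes), and the median was 0.22. At an unadjusted p under 0.05, 1 was lower and 3 were higher (2.33%, about the share of all genes). Between 0 h and 4 h after ATP the list's median was 0.25, with 1 gene lower and 27 higher at that level. Of all genes, 4.32% were lower and 4.51% higher after ATP. The 3 higher after extract were the matrix protease adamts9.L, the fibrillar collagen col1a1.L and the collagen cross-linking enzyme loxl2.L. Summed over the list, the Ctrl libraries held 12293.7, 14790.5 and 12536.2 CPM. The sums were 8048.9, 10228.9 and 13485.9 CPM at 0 h and 11651.9, 12014.6 and 13479.3 CPM at 4 h. For col1a1.L the values were 222, 458 and 531 CPM at 0 h and 640, 688 and 590 CPM at 4 h. All 4 h libraries were above 0 h, and replicate 1 at 0 h was the lowest by far. Without that library the median of the matrix list was 0.07 and the log2 fold change of col1a1.L was 0.37 rather than 0.66; without replicate 3 at 0 h they were 0.37 and 0.91. Muscle markers differed between the same libraries: over the 24 genes of the muscle list the summed level was 24.0, 48.6 and 58.6 CPM at 0 h and 72.9, 74.2 and 30.4 CPM at 4 h, with replicate 1 lowest at 0 h. Both groups overlapped. The alpha-cardiac actin gene actc1.L was at 0.369, 1.43 and 1.99 CPM at 0 h and 4.19, 3.72 and 0.720 CPM at 4 h, and myod1.L had at most 5 counts in any library. The sums of the endoderm, notochord and kidney list did not overlap between 0 h and 4 h, as given above. Of its 11 genes 8 had a log2 fold change above 0 (72.7%, against 49.5% of all genes), and the median was 0.27. At an unadjusted p under 0.05, 2 were higher and 0 lower (18.2%, against 1.31% of all genes higher). The main genes of that list by level, col2a1.L and col2a1.S, are collagens and so belong to the matrix list as well. Neither col2a1 copy was among the 2 higher genes. In the neuronal list 29 of 39 genes were above 0 (74.4%, against 49.5% of all genes), with a median of 0.15. At an unadjusted p under 0.05, 0 of these genes were lower and 0 higher. Without replicate 1 at 0 h the neuronal median was 0.05. The part of these other cell types in the matrix values was not tested. In the list of the Hedgehog and retinoic acid pathways 2 of 43 genes were higher and 0 lower (4.65%, against 1.31% of all genes higher), namely the receptor ptch1.S (1.51 ± 0.407 and 2.67 ± 0.501 CPM; SD, n = 3) and the transcription factor gli3.L (19.6 ± 2.83 and 25.5 ± 3.48 CPM).

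Both copies of a gene offer a second reading of the same change, although shared reads tie them. Of 5618 gene pairs with both homeologs tested, 63.8% had the same sign. In 22 pairs both copies had an unadjusted p under 0.05, 13 lower in both, 9 higher in both and 0 in opposite directions. These pairs were picked out after their values were seen. The lower pairs beyond those above were the GATA factor gata2, the bHLH inhibitor id3, the homeobox genes msx1 and emx1l, the respiratory regulator nrf1, and fam168a, with axin2, smad7, sox9, jun, rhob, ier5l and znf703. The higher pairs were amotl2, angptl4, cemip, usp6nl2, the calcium pump gene atp2b1, and afap1l1, bcl11b, macc1 and rreb1. The log2 fold changes of gata2 were -0.84 for the .L and -0.46 for the .S copy, and those of bcl11b, a zinc-finger repressor, 0.72 and 1.00. Among the 20 genes named first, 16 had a tested second copy, and all 16 copies had the same sign, 11 of them at an unadjusted p under 0.05. Since znf703, ier5l and angptl4 stand among the 20 with both copies, this count partly repeats the choice.

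Stress and clock genes contributed single members. In the list of the unfolded protein and integrated stress responses 2 of 88 were lower and 1 higher (3.41%, near the 2.37% of all genes). The glutathione-degrading enzyme chac1.L, a known Atf4 target, was at 41.9, 43.3 and 51.2 CPM at 0 h and 21.1, 22.8 and 40.2 CPM at 4 h, the last being replicate 3 (log2 fold change -0.70, SE 0.20). The mTORC1 inhibitor ddit4.L was at 43.2, 41.1 and 33.2 CPM and 26.1, 29.7 and 29.5 CPM (log2 fold change -0.46, SE 0.16). Neither overlapped, whereas atf4.L itself overlapped, at 260 ± 16.6 and 261 ± 65.4 CPM (SD, n = 3). In the clock list 4 of 33 genes were lower and 1 higher (15.2%, against 2.37%), with a median of -0.10. The 3 with the smallest p among the lower were the feedback repressors per3.L and cry2.S and the nuclear receptor rora.L, and the higher one was the opposing nuclear receptor nr1d1.L. For per3.L the values were 27.7, 27.5 and 26.4 CPM at 0 h and 18.5, 20.3 and 23.2 CPM at 4 h, without overlap (log2 fold change -0.40, SE 0.13). The cry2.S and nr1d1.L libraries overlapped between the times. The time of day of collection cannot be told apart from the interval after extract.

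Several lists of the differentiated epidermis held 0 genes with small p, while the keratins and the cilium transport genes held some. Of 117 genes of the motile axoneme 0 were lower and 0 higher at an unadjusted p under 0.05 (0%, against 2.37% of all genes). The axoneme median was 0.04, with 81 genes above 0 (69.2%, against 49.5% of all genes). Without replicate 3 at 4 h that median was -0.02. The same count of 0 held for 54 ionocyte genes, 23 genes of secretory epidermal cells and 92 junction genes. In lists of this size 2.37% is only a few genes, so a count of 0 cannot be set apart from that share. Of the junction genes 66 were above 0 (71.7%), with a median of 0.07. The ciliary master regulator foxj1.L measured 22.0 ± 2.82 CPM at 0 h and 18.4 ± 4.87 CPM at 4 h, and the ionocyte factor foxi1.L 54.6 ± 1.94 and 54.6 ± 3.00 CPM (SD, n = 3). Among 31 keratins 1 was lower and 1 higher (6.45%, against 2.37% of all genes), and of 32 hox genes 0 in either direction. Intraflagellar transport and BBSome genes had 3 of 59 higher and 0 lower (5.08%, against 2.37%) and a median of 0.08. Without replicate 3 at 4 h, 2 were higher and 3 lower, where 692 of all 24558 genes tested were higher and 914 lower. Without replicate 1 at 0 h the median was -0.00. The gene bbs5.L was at 20.8, 20.6 and 23.1 CPM at 0 h and 26.1, 26.7 and 25.3 CPM at 4 h. In bbs5.L the times did not overlap (log2 fold change 0.28, SE 0.11).

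Genes of growth and energy had medians slightly below 0, and single libraries decided how far and on which side. The 125 nuclear genes of oxidative phosphorylation had a median of -0.09 and the 137 ribosomal proteins of -0.04, with 0 genes of either at an unadjusted p under 0.05. Without replicate 3 at 4 h these medians were -0.28 and -0.28. Then 14 oxidative phosphorylation genes and 2 ribosomal protein genes were lower at that level. Of all genes, 914 of 24558 tested were lower in that fit, against 253 of 24052 with all libraries. Without replicate 1 at 4 h the medians were 0.01 and 0.10, and without replicate 2 at 4 h they were -0.03 and 0.04. Ribosome biogenesis genes had a median of -0.11, with 70 of 89 below 0 (78.7%, against 50.5% of all genes). At an unadjusted p under 0.05, 3 were lower and 0 higher (3.37%, against 2.37%). The range of that median over the libraries left out was -0.15 to -0.08. The nucleolar GTPase gnl3.L was at 27.7 ± 1.21 CPM at 0 h and 23.0 ± 2.48 CPM at 4 h (SD, n = 3). Grouped only by the leading letters of the symbol, 146 families had at least 15 tested genes. The lowest medians were those of ndufa (complex I subunits, -0.17), cox (-0.17) and gtf (general transcription factors, -0.14). The highest were those of adamts (matrix proteases, 0.24), col (collagens, 0.22) and the symbols formed of f and a number (0.16). By the median deviation of a family's genes from their means, replicate 3 at 4 h was the highest library for ndufa and cox, but not for gtf. Replicate 1 at 0 h was the lowest library for adamts and col, but not for the f symbols.

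**Figure D5:**
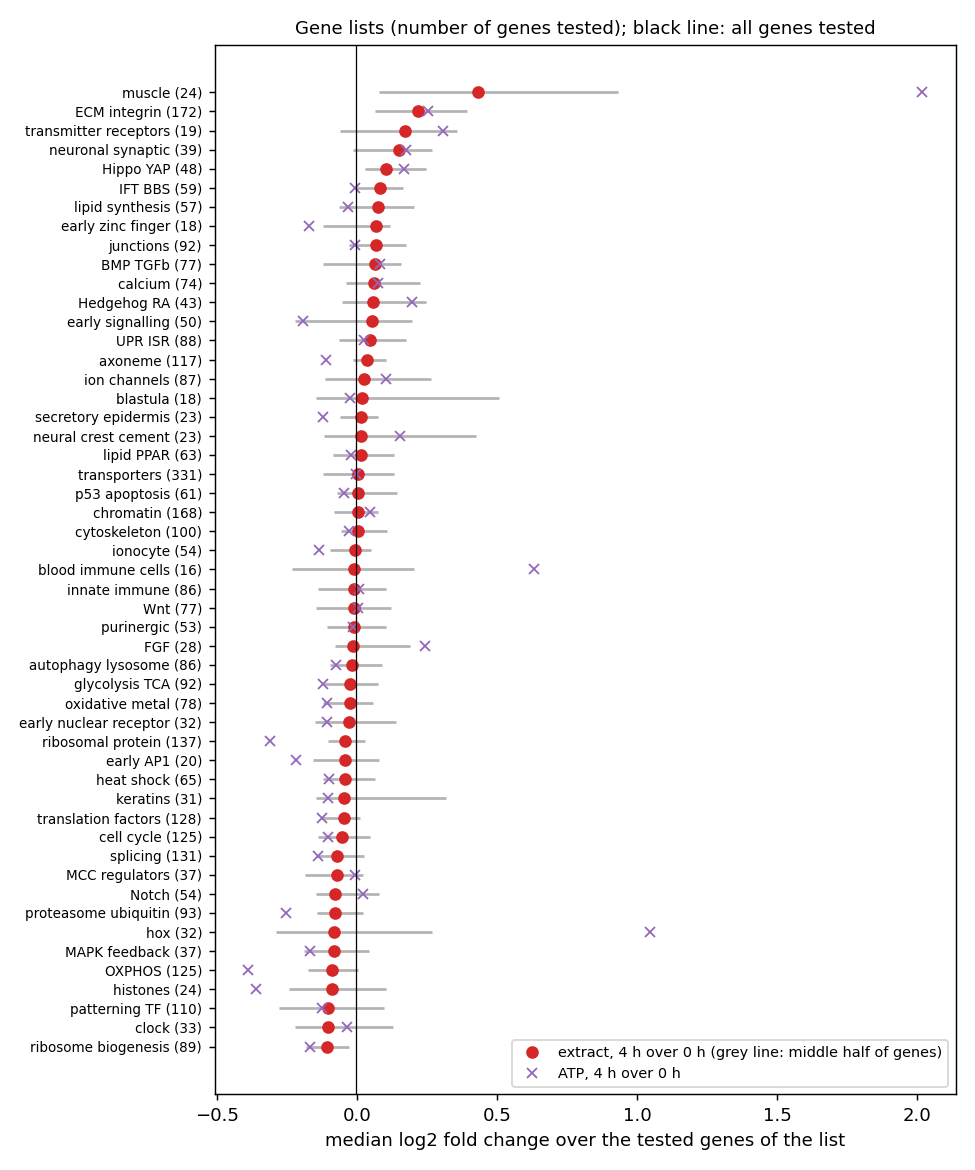
Median log2 fold change of 4 h over 0 h (x axis) for the lists with at least 15 tested genes (y axis, number of genes in brackets), after extract (red, with a grey line from the lower to the upper quartile of the genes) and after ATP (purple crosses). The matrix list lies at 0.22 and the ribosome biogenesis list at -0.11 after extract, and the black line marks the median of all genes tested.

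Across genes, the time changes after extract and after ATP were related, with a Pearson correlation of 0.25 over the 24052 genes and of 0.46 over the 10956 genes with at least 10 CPM. Genes are not independent replicates, and all libraries share one scaling and 1 estimate of spread per gene, so no p is given. After ATP 3 genes (0.0125%) had an adjusted p under 0.05 in edgeR's test, and 1040 were lower (4.32%) and 1085 higher (4.51%) at an unadjusted p under 0.05. Of the 253 genes lower after extract, 77 were also among those lower after ATP, which is 30.4% of the former and 7.40% of the latter. Of the 316 higher genes 84 were shared, or 26.6% and 7.74%. All 20 genes named first had the same sign after ATP, against 65.2% of all genes tested. That share was 85.0% among the 253 lower and 89.9% among the 316 higher genes. Of the 20, 9 of the 10 lower and 6 of the 10 higher had an unadjusted p under 0.05 after ATP. The 20 were chosen by a small p after extract, and both p-values of a gene use its shared estimate of spread. That count is thus no independent support. The difference between the time changes had an unadjusted p under 0.05 in 1 of the 20, jun.L. For hox genes the median was -0.08 after extract and 1.04 after ATP, and for the muscle list 0.43 and 2.02; the difference between the stimuli was not tested for lists.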

How the data were processed

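Pools of Xenobots gave total RNA, which per the labels went through a strand-keeping kit with ribosomal RNA depletion and was sequenced single-end at 75 nt. The authors deposited expected counts per gene, and 69.1% of these values were whole. The submitters' processing notes name fastp, STAR, RSEM and limma; versions, genome build and annotation source are not given in the sources used here. The authors also deposited log2 CPM adjusted for surrogate variables, used only as an alternative. How many sample columns went unused was checked (0).

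Expected counts were rounded, filtered with filterByExpr (24052 of 42638 genes left), scaled by TMM and fitted with edgeR 4.0.16 (R 4.3.3; robust quasi-likelihood, 1 coefficient per group over all 15 libraries). P-values were adjusted by Benjamini-Hochberg over all genes tested, two-sided, with a threshold of 0.05; fold changes carry a prior count (0.125). Standard errors come from the fold change and the F statistic (absolute value over root F). The fit was also run on simulated counts, the outcome of which is not given here and is not used as support. Ribosomal RNA genes were taken from a RefSeq table (Xenopus_laevis_v10.1), to which 40077 symbols matched. No gene was matched to the mitochondrial genome, so its share of reads was not measured here.

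The members and the 54 lists were chosen with earlier results of these data known. Named genes are the 10 smallest p in each direction with a symbol, at least 1 CPM and no overlap; up to 4 members per list with p under 0.05; defining genes of a list; and the 3 highest and 3 lowest families. Nothing states that the pools came from separate batches of embryos, so p-values measure the spread between these samples, which may be technical. Setting genes at 0 in a group to a floor of 3 counts moved no list's median by 0.01 or more. In the chi-square check ribosomal RNA genes were left out, a choice made after a first pass with them had given 27.5% for replicates 1 and 2 at 4 h. Alternatives used DESeq2 1.42.0, limma 3.58.1 and sva 3.50.0.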

Additional observations from a re-analysis of the deposited data

How the results depend on the processing

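Of the 17 alternatives, the count of genes with an adjusted p under 0.05 was 0 in those that left out 1 library, in limma-voom, with RLE factors, without the filter, in the 6 libraries alone, with homeologs summed, with replicates 1 and 2 at 4 h summed, without ribosomal RNA genes and with the replicate block. It was 5 with DESeq2, 15 with 3 surrogate variables as covariates and 142 in the authors' deposited surrogate-adjusted table, whose fit does not count the variables already removed. The count at an unadjusted p under 0.05 (569) was 316 with replicates 1 and 2 at 4 h summed, 1472 with surrogate variables and 3957 in the authors' table. Leaving out 1 library gave 359 to 1606, the highest without replicate 3 at 4 h; it was 861 without replicate 3 at 0 h, and 359 and 366 without replicate 1 or 2 at 4 h. The difference of the time changes after extract and ATP had 0 adjusted calls, 1 with surrogate variables and 17 in the authors' table. The cause of these shifts was not tested.

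Same-numbered libraries of the 2 times correlated at -0.19, 0.31 and 0.06 in their deviations from the group means, so the numbers were not taken to pair them. With the replicate block 940 genes had an unadjusted p under 0.05. Among the 4 h libraries, replicate 1 at 0 h matched replicate 3 best, while replicates 2 and 3 at 0 h each matched their own number best. Since no gene was called, a call could be gained but not lost. The 90 genes named for a small p passed the threshold in 41 instances. All of these were with DESeq2, with surrogate variables or in the authors' table. Genes named only as defining members of a list were left out of that count. The sign of the log2 fold change turned under at least 1 alternative in 70 of 203 named genes, such as junb.L (6 of 17) and ezh2.S (8 of 17). It turned in 0 of the 95 with an unadjusted p under 0.05. These 95 were picked by that p in the same libraries that the alternatives reuse, so this count is no independent support. The median turned sign in 33 of 53 lists. At under 1 CPM the median standard error was 0.58, which limits what can be seen in genes of low level at this depth.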

Other observations

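Calcium and membrane transport genes, apart from atp2b1 not described above, gave single members with small p. Of 74 calcium genes 1 was lower and 2 were higher at an unadjusted p under 0.05 (4.05%, against 2.37% of all genes), and the higher were both copies of the plasma membrane calcium pump atp2b1. The more abundant atp2b1.L held 147, 151 and 150 CPM at 0 h and 191, 192 and 155 CPM at 4 h. Replicate 3 at 4 h was much nearer to 0 h than the other two. The lower gene was orai2.L, a store-operated calcium channel, at 5.58 ± 0.922 and 4.24 ± 0.108 CPM (SD, n = 3). Among 87 ion channel genes 1 was lower and 4 higher (5.75%, against 2.37% of all genes). The higher ones included the calcium channel subunit cacna2d2.L, at 1.82 ± 0.606 and 3.40 ± 0.338 CPM, the T-type calcium channel cacna1g.L, at 0.282 ± 0.0898 and 1.02 ± 0.725 CPM, and the potassium channel kcnj10.S, at 0.725 ± 0.0497 and 1.37 ± 0.311 CPM (SD, n = 3). Of these, cacna1g.L overlapped between the times. The lower one was the inward rectifier kcnj2.S, at 30.7, 41.4 and 35.7 CPM at 0 h and 26.7, 26.6 and 26.8 CPM at 4 h, where the values at 4 h were almost equal. Of 53 purinergic genes 0 were lower and 0 higher (0%, against 2.37% of all genes), which in so short a list cannot be set apart from that share.

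Of 65 chaperone genes 2 were higher and 0 lower at an unadjusted p under 0.05 (3.08%, near the 2.37% of all genes). These were the inducible hsp70.L, at 4.98, 5.55 and 4.70 CPM at 0 h and 7.36, 6.87 and 6.88 CPM at 4 h, and the co-chaperone bag3.S, at 0.795 ± 0.111 and 1.48 ± 0.309 CPM (SD, n = 3). Both were without overlap between the times. The gluconeogenic enzyme pck1.S was at 195, 232 and 194 CPM at 0 h and 316, 326 and 216 CPM at 4 h, and its replicate 3 at 4 h lay within the range of the 0 h libraries.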
